A study of Saccharomyces cerevisiae with 103 samples.

Results

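Budding yeast after 7 h in sporulation medium (SPO) was compared with the same strain after 1 h in SPO, in the second of 5 experiments of the series (Exp2). The libraries were chosen by their titles, which give an hour in SPO and no time in rich medium, and came to 8 of the 103 in the series. Each hour had 2 RNA-seq libraries, which count the RNA of each gene, and 2 poly(A) tag libraries (mPAT), which count 3′ ends and give the mean length of each gene's poly(A) tail. Both groups were WT SK1, a strain that sporulates fast and in good synchrony. Per the labels, cells had grown in YPD and then in BYTA, a presporulation medium with acetate, before the shift to SPO at 30°C. They differed only in the hour, 1 h or 7 h, and neither had been returned to YPD. Other libraries of Exp2 had been returned. They enter here the estimate of the spread and, for counts, the choice of genes tested and the scaling. Whether both libraries of a group were grown as independent cultures is not stated in the labels, and the p-values therefore describe only how far these libraries spread, which may be technical.

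In SPO, diploid cells starved of nitrogen leave growth, replicate their DNA, recombine, divide by meiosis I and II and pack the products into spores. The programme runs as a cascade: Ime1 switches on early genes of recombination and chromosome pairing through the URS1 element, the transcription factor Ndt80 then switches on middle genes of the divisions and of spore formation through the middle sporulation element (MSE), and late genes build the spore wall. A poly(A) tail is added to nearly every mRNA in the nucleus and shortened in the cytoplasm by the Ccr4-Not and Pan2-Pan3 deadenylases, after which the cap is removed and Xrn1 digests the body, so tail length and RNA level are linked but separate properties of a gene.

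Total counts over genes were 1457891 and 946236 in the RNA libraries at 1 h and 1088652 and 132594 at 7 h, so the second RNA library at 7 h was the shallowest. Tag libraries held 932309 and 452277 tags at 1 h and 757529 and 701290 at 7 h. Replicates differed by more than counting noise in both assays, with a chi-square per degree of freedom of 4.41 at 1 h and 1.57 at 7 h in RNA and of 6.99 at 1 h and 9.18 at 7 h in tags. RNA levels are given as CPM, the count of a gene scaled to the size and composition of its library, in the order replicate 1, replicate 2. Log2 changes are 7 h minus 1 h from edgeR's quasi-likelihood test, and a gene is said to have risen or fallen where its p, adjusted over all genes by Benjamini-Hochberg, was under 0.05. The median gene moved by -0.14 on this log2 scale, and by -0.52 with library sizes alone in place of composition scaling, so directions near 0 depend on the scaling.

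RNA of 1786 of 6109 genes rose between 1 h and 7 h (29.2% of those tested) and RNA of 2000 fell (32.7%). With library sizes alone the split was 1350 higher and 2782 lower. Large changes were mostly rises: 642 genes rose and 398 fell at least 4-fold, and 110 rose and 6 fell at least 32-fold. The groups did not overlap in CPM for 4673 genes (76.5% of those tested). Without the first, deeper RNA library at 7 h the counts were 1049 higher and 882 lower. These are whole cultures, in which fewer cells of a type and less RNA per cell cannot be told apart.

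The labelled state was checked against markers. The 40 genes of the middle sporulation list summed to 1552 and 1482 CPM at 1 h and to 112641 and 106947 CPM at 7 h. This list holds cell-cycle genes such as CDC5, CLB1 and CLB3, which are not specific to meiosis. The 20 genes of haploid or mating cells that were tested summed to 408 and 431 CPM at 1 h and 874 and 984 CPM at 7 h. Of these 20 genes 8 rose and 6 fell, with a median log2 change of 0.23 that turned to -0.16 with library sizes alone. STE18, the gamma subunit of the pheromone G protein, rose most (7.996 and 8.53 CPM at 1 h, 266 and 302 CPM at 7 h, log2 change 5.05, adjusted p 5.147e-24 in edgeR), followed by NEJ1, a factor of DNA end joining (log2 change 4.33). The defining pheromone genes had few RNA counts. MFA1, of a-factor, had 11 and 9 counts at 1 h and 32 and 3 at 7 h and rose by 2.14. MFA2 had 3 and 0 counts and 16 and 3 and rose by 3.92. MF(ALPHA)1, of alpha-factor, had at most 2 counts in any RNA library. STE3 rose by 2.80 (5 and 6 counts to 25 and 5), and MF(ALPHA)2 fell by 1.72 (20 and 15 counts to 2 and 2). In tags MFA1 went from 17 and 21 to 56 and 61 and MFA2 from 9 and 3 to 44 and 53. STE3 went from 3 and 7 tags to 40 and 55. Of 11 haploid or mating genes tested in tags 6 rose and 0 fell, with a median log2 change of 2.23. FUS1, a gene of cell fusion, fell by 1.57 on the log2 scale. Of the 14 genes of G1 and vegetative growth, which summed to 748 and 907 CPM at 1 h and 547 and 516 CPM at 7 h, 6 fell and 2 rose, and none rose with library sizes alone. The G1 cyclins PCL1 and CLN1 led the falls, by 3.40 and 3.33 on the log2 scale, to 4 and 6 counts over both libraries at 7 h. In tags neither passed the test (log2 changes -0.69 and -1.23, adjusted p 0.5373 and 0.102 in edgeR). Of the other growth markers HXT3 rose by 0.90 in RNA, and CLN2 and HXT1 did not pass the test. Without the first RNA library at 7 h only 1 haploid gene and 2 growth genes were called lower. The part of haploid or growing cells in the changes below was not tested.

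Regulators of meiotic entry changed by less than 4-fold between 1 h and 7 h. Of 13 tested, 8 rose and 1 fell, with a median log2 change of 0.50, and with library sizes alone 5 rose and 3 fell. IME1, the activator of the early programme, stood at 870.4 and 641 CPM at 1 h and 636 and 595 CPM at 7 h, and its log2 change of -0.28 did not pass the test (adjusted p 0.1301 in edgeR). IME2, the kinase that acts beside and after Ime1, rose from 901 and 718 CPM to 1951 and 2120.0 CPM (log2 change 1.32, SE 0.162, adjusted p 4.695e-10). RIM4, whose protein binds middle mRNAs and holds back their translation, overlapped between the groups. It had 1955 and 1666 CPM at 1 h and 1648 and 2255 CPM at 7 h (log2 change 0.08, adjusted p 0.6976). Exp2 has no library between these hours. In Exp1, a time course of the same strain, RIM4 averaged 2024 CPM at 1 h, 4714 at 4 h and 2016 at 7 h. IME1 averaged 1097, 1942 and 899.5 CPM there. A peak between the hours compared does not show in their difference. SUM1, the repressor of middle genes, rose by 0.97 and HST1, the deacetylase that works with it, by 1.32 on the log2 scale. SLZ1, a subunit of the complex that methylates adenosines in meiotic mRNA, rose most of this group (513 and 498 CPM to 1655 and 1731 CPM, log2 change 1.74), and PHO92, which binds the methylated sites, rose by 1.34. RIM11, a kinase that acts on Ime1 and Ume6, was the 1 member that fell, by 0.74. Without the first RNA library at 7 h, 5 of the 13 were called higher.

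Early genes moved in both directions. Of 34 tested, 18 rose and 6 fell, with a median log2 change of 0.53. With library sizes alone 12 rose and 10 fell, with a median of 0.14, and without the first RNA library at 7 h 11 rose and 3 fell. Genes of strand exchange, the chromosome axis and cohesion were among those that fell. DMC1, the meiotic recombinase, had 1100.0 and 866 CPM at 1 h and 452 and 445 CPM at 7 h (log2 change -1.13, adjusted p 3.658e-08). HOP1, a protein of the chromosome axis, had 619 and 470.2 CPM at 1 h and 243 and 269.9 CPM at 7 h (log2 change -1.13, adjusted p 1.027e-07). REC8, the meiotic cohesin subunit, fell by 0.60 from 499 and 391 CPM to 297 and 286 CPM. In these 3 genes both libraries at 7 h lay below both at 1 h. In the hourly means of Exp1 all 3 were highest at 4 h. HOP1 averaged 487 CPM at 1 h, 1103 at 4 h and 347.5 at 7 h there. Genes of the synaptonemal complex were among those that rose: ZIP1, its transverse filament, went from 152 and 156 CPM to 311 and 357 CPM (log2 change 1.07), ECM11 rose by 2.29 and GMC2 by 3.33. SPO11, whose protein cuts DNA to start meiotic recombination, rose from 29.1 and 29.0 CPM to 80.3 and 79.4 CPM (log2 change 1.46). ZIP1 and SPO11 were also highest at 4 h in Exp1, with means of 1009 and 251.2 CPM, against 496.9 and 106.2 CPM at 7 h. The largest rises of the list were in genes that act at the first division, MAM1 of the monopolin complex (2.86 and 2.56 CPM to 216 and 191 CPM, log2 change 6.22) and SGO1, which protects centromeric cohesin (log2 change 3.64).

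Late and middle genes had the highest median rises of the 20 gene lists. Of 40 middle genes 38 rose and none fell, with a median log2 change of 5.64, and the counts were the same without either RNA library at 7 h. The 2 that did not pass the test were CSM3 and SPO1. NDT80 rose from 14.9 and 29.9 CPM to 1126 and 1191 CPM (chromosome VIII, 356561 to 358444, log2 change 5.75, SE 0.219, adjusted p 3.752e-30). The genes of the divisions followed: the polo kinase CDC5 went from 36.6 and 33.3 CPM to 644 and 516 CPM (log2 change 4.10), and the B-type cyclins CLB1 and CLB3 rose by 3.80 and 3.94. AMA1, the meiosis-specific activator of the anaphase-promoting complex, stood at 169 and 152 CPM at 1 h and at 3502 and 3271 CPM at 7 h. SPS4, a sporulation-specific gene, went from 35.98 and 38.4 CPM to 39505 and 36512 CPM (log2 change 9.999, SE 0.332), SSP2, which activates the kinase Smk1, from 9.14 and 5.97 CPM to 8054 and 8217 CPM, and SSP1, at the leading edge of the spore membrane, from 6.28 and 11.1 CPM to 1004 and 1016 CPM. SMK1, the kinase of spore wall assembly, rose by 5.20 and the septin genes SPR3 and SPR28 by 9.05 and 7.75.

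Among 19 late genes 16 rose and 1, UBX6, fell, with a median log2 change of 6.96. OSW1, needed for the outer spore wall, had 3 counts over both libraries at 1 h and 2147 at 7 h, a ratio of CPM of 1842 with a 95% counting interval of 630.0 to 8941. DIT1, which makes the dityrosine of the outermost layer, went from 14.3 and 15.4 CPM to 2640.0 and 2477 CPM (log2 change 7.43), and CDA1, a deacetylase that makes the chitosan layer, from 7.42 and 2.56 CPM to 2046 and 2088 CPM (log2 change 8.54). SPS100, a spore wall gene, was at 12.6 and 5.97 CPM at 1 h and 5.95 and 15.9 CPM at 7 h, and its change did not pass the test. Within the gene list of stress and storage, SGA1, the glucoamylase of sporulating cells, rose by 7.19 from 58.3 and 64.01 CPM to 9591 and 8146 CPM. Levels of single regulators, early, middle and late genes in each library are shown in the plot of meiotic genes.

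**Figure D1:**
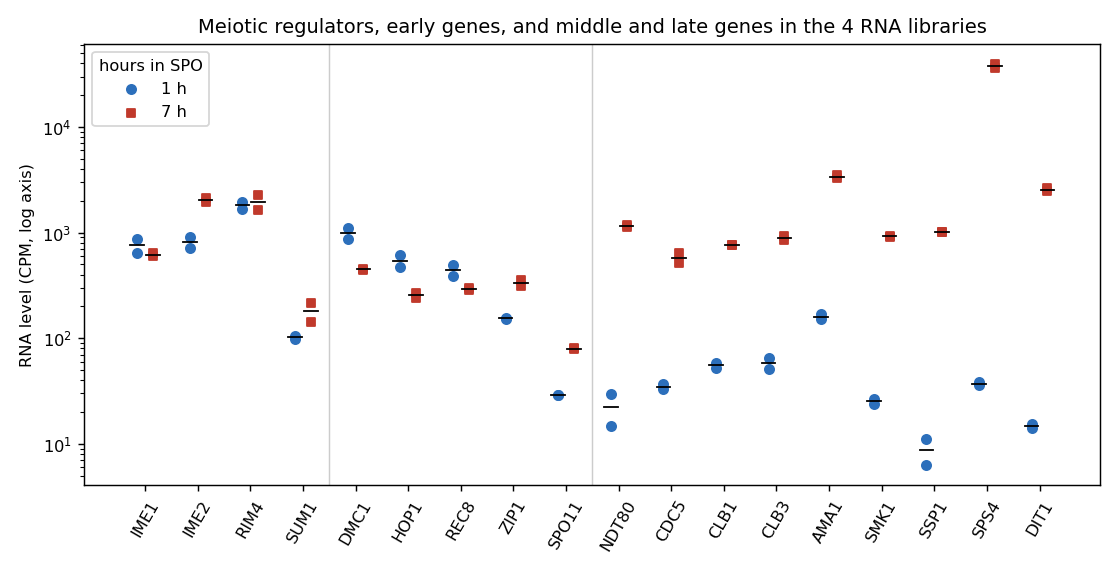
RNA level (CPM, log axis) of 18 meiotic genes in the 4 RNA libraries, with circles for 1 h and squares for 7 h in SPO and a bar for the mean of 2 libraries. The log2 changes of regulators and early genes run from -1.13 for HOP1 to 1.46 for SPO11, and those of NDT80 and the middle and late genes at the right start at 3.80 for CLB1, with SPS4 at 39505 and 36512 CPM at 7 h.

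Promoters of the early, middle and late genes are shown because genes with the same element moved in different ways. Each was read from the R64 reference of S. cerevisiae, the assembly that sacCer3 names, over 250 bases before and 50 bases after the start of the coding sequence, on the strand of the gene. Capitals mark the core of URS1 (GGCGGC) or of the MSE (GNCACAAA, where N is any base), searched on both strands. The windows are chrIX:226352-226651 (plus strand) for HOP1, chrXVI:666030-666329 (plus) for SMK1, chrVIII:356311-356610 (plus) for NDT80, chrXV:902825-903124 (minus) for SPS4 and chrVII:465386-465685 (minus) for BIL2.
HOP1: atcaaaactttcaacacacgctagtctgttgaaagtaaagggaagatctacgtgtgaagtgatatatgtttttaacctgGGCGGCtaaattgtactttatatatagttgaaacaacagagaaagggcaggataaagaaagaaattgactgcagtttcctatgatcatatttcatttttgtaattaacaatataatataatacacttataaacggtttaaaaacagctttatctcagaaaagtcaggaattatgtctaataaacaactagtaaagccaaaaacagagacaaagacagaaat
SMK1: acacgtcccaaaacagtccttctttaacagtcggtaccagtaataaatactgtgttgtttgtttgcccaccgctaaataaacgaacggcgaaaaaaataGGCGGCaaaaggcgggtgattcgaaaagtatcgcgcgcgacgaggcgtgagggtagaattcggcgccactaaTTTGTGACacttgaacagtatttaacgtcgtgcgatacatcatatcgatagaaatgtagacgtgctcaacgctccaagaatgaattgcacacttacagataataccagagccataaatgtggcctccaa
NDT80: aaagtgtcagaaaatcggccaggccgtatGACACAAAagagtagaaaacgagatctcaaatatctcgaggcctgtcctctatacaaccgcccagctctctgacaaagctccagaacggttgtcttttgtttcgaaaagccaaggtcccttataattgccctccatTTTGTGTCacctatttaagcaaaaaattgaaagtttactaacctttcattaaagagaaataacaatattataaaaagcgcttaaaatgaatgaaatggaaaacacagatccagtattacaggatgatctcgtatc
SPS4: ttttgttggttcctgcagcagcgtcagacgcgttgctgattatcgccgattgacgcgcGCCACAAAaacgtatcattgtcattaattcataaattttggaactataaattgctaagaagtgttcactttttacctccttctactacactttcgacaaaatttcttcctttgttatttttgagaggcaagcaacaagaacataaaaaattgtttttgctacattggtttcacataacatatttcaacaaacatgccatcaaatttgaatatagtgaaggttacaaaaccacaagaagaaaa
BIL2: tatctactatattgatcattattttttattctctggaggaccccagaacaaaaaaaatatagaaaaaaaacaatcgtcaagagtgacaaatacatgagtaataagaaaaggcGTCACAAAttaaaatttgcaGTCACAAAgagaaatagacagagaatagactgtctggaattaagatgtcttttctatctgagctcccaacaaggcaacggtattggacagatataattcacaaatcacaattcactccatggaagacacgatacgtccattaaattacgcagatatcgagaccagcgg
HOP1, an early gene that fell, holds a URS1 core, and SMK1, which rose, holds a URS1 core that begins 151 bases before the coding start and an MSE core at 79 bases. NDT80 holds 2 MSE cores, at 221 and 85 bases before its coding start. SPS4 holds 1, at 192 bases, and BIL2 holds 2, at 138 and 118 bases. URS1 cores were found in 18 of 34 early promoters (52.9%) and in 5.15% of the 5985 promoters read. MSE cores were found in 20 of 40 middle promoters (50.0%), in 7 of 19 late promoters (36.8%) and in 4.33% of all. Among genes whose RNA rose at least 4-fold, 104 of 575 promoters held an MSE core (18.1%), and among those that fell at least 4-fold, 9 of 352 did (2.56%). The URS1 core was at 5.04% and 3.98% in those same classes. A match is a run of letters in the window and no sign of binding.

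The 8 largest rises among genes of at least 50 CPM included 2 with no count at 1 h. GAT4, of the GATA family of zinc finger proteins (chromosome IX, 380019 to 380384), had 0 counts in both libraries at 1 h and 936 at 7 h, at least 803-fold higher when set against a floor of 3 counts over the group. YPR077C, which has no entry in the annotation used, had 0 and 320 counts, at least 275-fold higher. BIL2 (chromosome VII, 465043 to 465435) had 1 count at 1 h and 1018 at 7 h, a ratio of 2621 with a 95% counting interval of 469 to 103618. The others were OSW1, SSP2, RRT5 (5.14 and 8.53 CPM to 7622 and 6288 CPM) and the unnamed genes YPR078C and YDR042C, at 14430.0 and 12051 CPM and 12896 and 11289 CPM at 7 h, with log2 changes of 10.12 and 10.11. The rule that chose the 8 required the groups to be apart.

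Genes of ribosome production rose together. Of 54 ribosome biogenesis genes, which process ribosomal RNA and assemble subunits, 50 rose and none fell, with a median log2 change of 2.58. Their sum was 459 and 409 CPM at 1 h and 2523 and 2937 CPM at 7 h, and 33 were called without the first RNA library at 7 h. RRP3, an RNA helicase of ribosomal RNA processing, had 1 count at 1 h and 37 at 7 h, a ratio of 95.3 with a counting interval of 16.1 to 3863. DBP3, another such helicase, went from 4.57 and 5.12 CPM to 194 and 262 CPM (log2 change 5.43, SE 0.302, adjusted p 1.128e-22). Of 137 genes of cytosolic ribosomal proteins 92 rose and 4 fell, with a median of 0.99, against 64 and 7 with library sizes alone and 55 and 1 without the first RNA library at 7 h. The largest of these rises were in RPL21A (log2 change 3.42) and RPL22A (2.75), genes with a near-identical paralog. They rested on 8 and 11 counts over both RNA libraries at 1 h and 34 and 29 at 7 h. Neither passed the test in tags (log2 changes 0.68 and 1.24), and both rises are uncertain for these reasons. Translation factors rose in 18 of 29 cases and fell in 1, HYP2, with TIF11, which encodes the initiation factor eIF1A, at 13.1 and 12.8 CPM at 1 h and 120.0 and 127 CPM at 7 h (log2 change 3.21). TEF1, the most counted elongation factor gene of the list, did not pass the test (log2 change 0.19). In tags, 27 of 54 biogenesis genes rose (15 to 23 when 1 library was left out) and 22 of 137 ribosomal protein genes (13 without the second tag library at 1 h), so the second assay called fewer, with medians of 1.78 and 0.45.

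The promoter of DBP3 (chrVII:361810-362109, minus strand, R64) shows the elements common to the biogenesis genes, with capitals for the PAC core (GATGAG) and the RRPE core (AAAATTTT) on either strand.
DBP3: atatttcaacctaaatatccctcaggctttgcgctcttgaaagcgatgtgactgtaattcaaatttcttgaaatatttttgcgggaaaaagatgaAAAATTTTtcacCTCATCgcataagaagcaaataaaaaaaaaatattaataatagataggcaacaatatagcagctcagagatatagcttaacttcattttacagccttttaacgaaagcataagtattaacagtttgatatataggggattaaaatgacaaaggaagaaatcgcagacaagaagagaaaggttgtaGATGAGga
It holds PAC cores that begin 143 bases before and 43 bases after the coding start and an RRPE core at 155 bases before it. PAC cores were in 52 of 54 biogenesis promoters (96.3%) and 20.4% of all promoters, and RRPE cores in 43 of 54 (79.6%) and 9.02%. The RRPE core was also in 23 of 29 promoters of translation factors (79.3%) and in 9 of 137 of ribosomal proteins (6.57%).

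Carbon metabolism moved the other way. Of 20 genes of glycolysis and fermentation 17 fell and 1, the hexokinase gene HXK2, rose, with a median log2 change of -1.68. ENO1, an enolase, fell by 3.02 from 659 and 1124 CPM to 111 and 103 CPM (SE 0.327, adjusted p 2.107e-06). TDH1, a glyceraldehyde-3-phosphate dehydrogenase, had 48.6 and 91.3 CPM at 1 h and 4.95 and 47.6 CPM at 7 h (log2 change -2.75). Its groups were thus separated by less than 1 CPM. The list also holds the paralogs ENO2, TDH2 and TDH3, and the split of reads between paralogs was not tested. Of 23 genes of acetate use, the glyoxylate cycle and gluconeogenesis 18 fell and 2 rose, with a median of -1.90. YAT1, a carnitine acetyltransferase, fell from 6432 and 5281 CPM to 839 and 619 CPM (log2 change -2.95). PCK1, the first enzyme of gluconeogenesis, rose from 556 and 545 CPM to 3242 and 3573 CPM (log2 change 2.62), and ADY2, an acetate transporter, rose by 0.74. ICL1, the isocitrate lyase of the glyoxylate cycle, did not pass the test (log2 change -0.38, adjusted p 0.1704). Of 20 genes of fatty acid oxidation and the peroxisome 17 fell and 2 rose, with POT1, the thiolase, down by 3.16 and FAA2, which activates fatty acids and overlaps BUD25, down by 3.37. Of 43 genes of the citric acid cycle and respiration 30 fell and none rose, with a median of -0.90. RIP1, the Rieske protein of complex III, fell by 2.23 and SDH3, a subunit of complex II, by 2.00, while CIT1, the first enzyme of the cycle, stood at 3623 and 2945 CPM at 1 h and 3548 and 3318 CPM at 7 h.

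Genes of stress, trehalose and glycogen fell in 29 of 39 cases and rose in 6, with a median of -1.50. YGP1, a secreted glycoprotein made on starvation, fell by 3.74 from 1292 and 1727 CPM to 111 and 119 CPM. The stress response element (STRE, AGGGG on either strand) was in 20 of 39 promoters of this list (51.3%), in 18 of 43 of the citric acid cycle and respiration (41.9%) and in 21.7% of all. It was in 34.7% of promoters of genes that fell at least 4-fold and in 15.1% of those that rose at least 4-fold. Of 28 genes of nitrogen use tested (of 29 in the list) 17 fell and 3 rose, and 11 were called lower without the first RNA library at 7 h. The ammonium permease MEP2 fell by 3.44 and UGA1, the GABA transaminase, by 3.26, while GLN1, the glutamine synthetase, rose from 732 and 533 CPM to 3506 and 3747 CPM (log2 change 2.51). Proteasome genes fell in 28 of 33 cases and rose in none, with RPN13, a ubiquitin receptor, down by 2.02 and RPN4, their transcription factor, down by 1.66. In tags 6 of the 33 fell, and 1 to 3 when 1 tag library was left out, and RPN4 did not pass the test there (adjusted p 0.1353). Of 30 genes of vacuolar proteases and autophagy 11 rose and 12 fell, shares near those over all genes. ATG32, the receptor for mitophagy, rose by 2.61 (136 and 126 CPM to 761 and 881 CPM), ATG8, which coats the autophagosome, by 2.41 and the vacuolar protease PEP4 by 1.12, while the proteases PRB1 and CPS1 fell by 1.76 and 2.33. Without the first RNA library at 7 h, 7 of the 12 falls were called.

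The enzymes of mRNA decay did not move as a body. Of 40 genes 17 rose and 6 fell, with a median log2 change of 0.23 that became -0.15 with library sizes alone, where 13 rose and 12 fell, and 9 rose and 2 fell without the first RNA library at 7 h, and 3 fell without the first at 1 h. CCR4, the main deadenylase, fell from 123 and 87.1 CPM to 60.4 and 71.5 CPM (log2 change -0.78, adjusted p 0.002755), and XRN1, the 5′ to 3′ exonuclease, from 284 and 236 CPM to 152 and 143 CPM (log2 change -0.80, adjusted p 1.955e-04). Neither passed the test in tags, with log2 changes of -0.46 and -0.40 and adjusted p of 0.3013 and 0.4153. POP2, the second deadenylase of the Ccr4-Not complex, had 75.4 and 59.7 CPM at 1 h and 71.3 and 63.5 CPM at 7 h (log2 change 0.04, adjusted p 0.9104). PAN2 did not pass the test and PAN3 fell by 0.86. PAB1, the cytoplasmic poly(A)-binding protein, rose from 312 and 309 CPM to 797 and 762 CPM (log2 change 1.33), PAP1, the nuclear poly(A) polymerase, from 124 and 95.6 CPM to 433 and 286 CPM (log2 change 1.82), and NOT3, a subunit of Ccr4-Not, by 1.79. PBP1, a partner of Pab1, fell by 1.73. UPF3, of nonsense-mediated decay, and EDC2, which stimulates decapping, were the largest rises, by 2.38 and 2.13. Of 7 LSM genes, LSM1 to LSM7, of the decapping activator complex 6 rose, LSM2 by 1.82. Of 10 histone genes 9 rose, led by HHF1 and HTZ1 with 1.91 and 1.75, and HHT2 did not pass the test. Many of these have a near-identical copy and are uncertain for that reason. Of 8 genes of the mitochondrial genome 2 were tested and both rose, COX1 by 1.99 and OLI1 by 1.495. OLI1 changed by -1.38 without passing the test when the first RNA library at 7 h was left out, and by 3.28 without the first at 1 h.

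**Figure D2:**
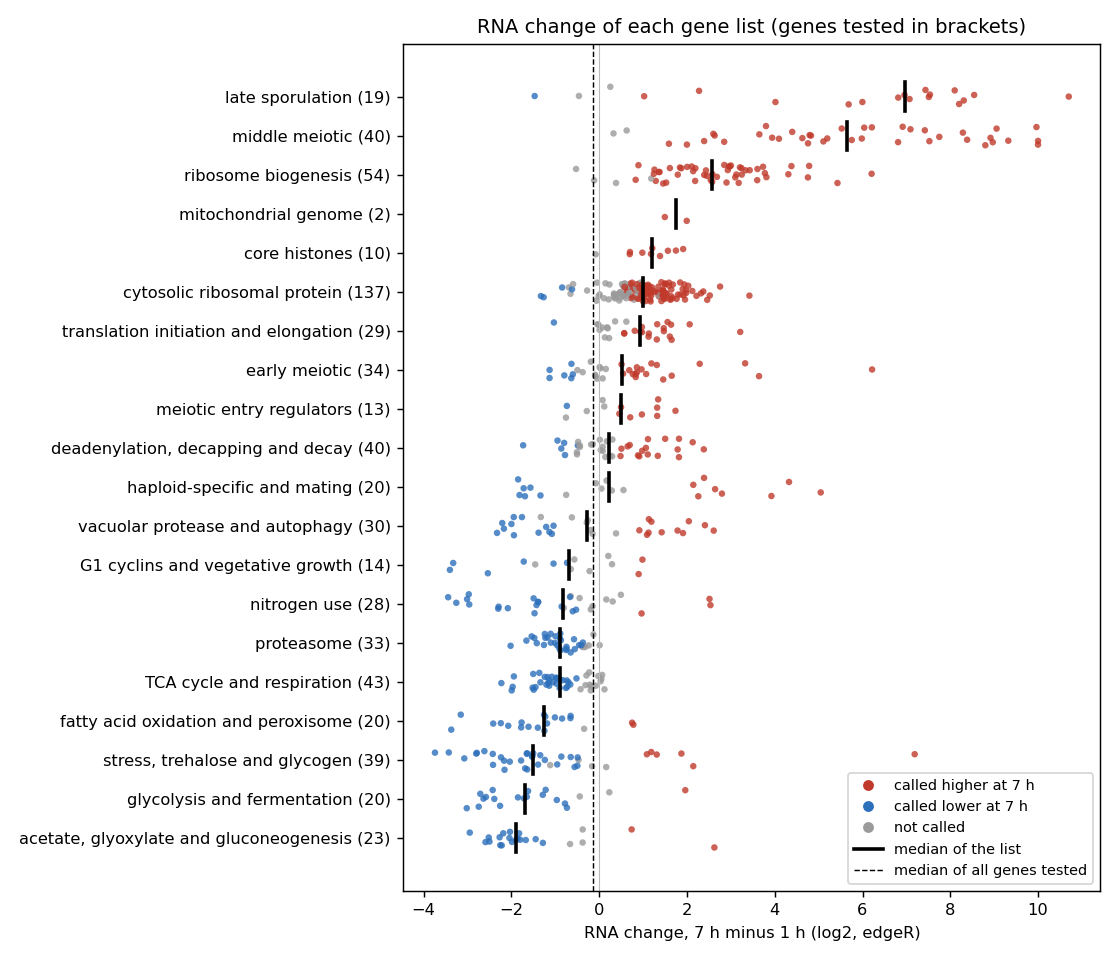
RNA change from 1 h to 7 h (log2, 7 h minus 1 h) of every tested gene in 20 gene lists, with the number tested in brackets. Red points were called higher, blue points lower and grey points neither, thick bars mark list medians, and the dashed line is the median of all genes at -0.14. Late, middle and ribosome biogenesis genes lie farthest to the right, with medians of 6.96, 5.64 and 2.58, and genes of acetate use and glycolysis farthest to the left, with -1.90 and -1.68.

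The 8 largest falls among genes of at least 50 CPM held 4 genes of cell separation after budding. DSE2 (chromosome VIII, 385510 to 386487), a daughter-cell glucanase-like protein, fell most, from 247 and 323 CPM to 6.94 and 7.94 CPM (log2 change -5.31, SE 0.349, adjusted p 1.324e-19). DSE1, also of the daughter cell, fell by 4.27, SUN4, of septation, by 4.22 and CTS1, the chitinase that opens the septum, by 4.04. YLR286W-A, which has no entry in the annotation used, fell by 4.52 and carries a systematic name next to that of CTS1 on the other strand, and the use of strand in counting is not stated. NRS1 fell by 4.70 and NNR2, a repair enzyme for damaged NADH, by 4.26. MET6, the methionine synthase, went from 1677 and 1436 CPM to 77.3 and 111 CPM (log2 change -4.23). All 8 were lower in both libraries at 7 h, as the rule that chose them required.

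Poly(A) tag counts gave a second measure of RNA level, from separate libraries made with poly(A) selection. Of 5232 genes tested 929 rose in tags (17.8%) and 707 fell (13.5%), and 444 and 434 fell without the first and without the second tag library at 7 h. Over 5161 genes the log2 changes of both assays had a Spearman rho of 0.777, across genes that are not independent replicates. Of 1446 genes called in both assays, 1430 had the same sign. For early genes the assays gave different counts: in tags 19 of 32 rose and none fell, with a median log2 change of 1.44 against 0.53 in RNA, although 10 to 18 rose when 1 tag library was left out. REC8, which fell in RNA, rose in tags (log2 change 1.23, adjusted p 0.0137). HOP1 and DMC1, which also fell in RNA, changed by 0.33 and -0.09 in tags without passing the test. Middle genes rose in 39 of 40 cases in tags, with a median of 6.01. Falls in tags were called for 11 of 20 genes of glycolysis, 15 of 23 of acetate use, 9 of 20 of fatty acid oxidation, 15 of 43 of the citric acid cycle and respiration and 24 of 39 of stress and storage. When 1 tag library was left out these became 6 to 7, 9 to 13, 7 to 9, 10 to 13 and 17 to 22 genes.

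A tail value is the mean length, in nucleotides (nt), over the tags of a gene in a library, as the authors deposited it, and only values that rest on 20 or more tags were used. That left 3535 and 2392 genes at 1 h and 3588 and 3288 at 7 h, and 2079 genes with a value in all 4 libraries. Over those 2079 genes the median tail was 24.7 and 25.4 nt in the libraries at 1 h and 21.5 and 24.4 nt at 7 h, a difference in group means of -2.11 nt (25.03 ± 0.463 nt against 22.9 ± 2.05 nt, SD, n = 2 libraries each). Both libraries at 7 h lay below both at 1 h, which with 2 against 2 gives the smallest exact permutation p possible, 0.333, two-sided. The replicates at 7 h differed by more than those at 1 h: 1659 of 2079 genes had the longer tail in the second library at 7 h, with a median absolute difference of 3.19 nt, against 2.15 nt at 1 h. Genes kept much of their order, with a Spearman rho of 0.601 between the mean tails of both hours and of 0.659 and 0.671 between replicates.

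Limma on the tails called 5 genes longer (0.241% of those tested) and 9 shorter (0.433%), and 321 genes had an unadjusted p under 0.05. When each library was first centred on its median, 51 were called longer and 18 shorter. The change of a single gene had a median SE of 2.98 nt. The median change was -1.79 nt, and -0.41 nt without the first tag library at 7 h. By sign alone, 655 genes had a longer and 1424 a shorter mean tail at 7 h, and both libraries at 7 h lay below both at 1 h for 785 genes and above for 224. None of the 13 genes named below was called without the second library at 1 h or without the second at 7 h.

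Among the longer tails GLN1, the glutamine synthetase whose RNA rose, had 27.2 and 24.2 nt at 1 h and 34.8 and 39.1 nt at 7 h, a change of 11.3 nt (SE 2.37, adjusted p 0.0364 in limma) on 269 to 1034 tags. ALT2, a paralog of the alanine transaminase ALT1 (chromosome IV, 678241 to 679764), had the longest gain, from 35.7 and 42.6 nt to 50.5 and 64.8 nt (18.5 nt, SE 3.90), on 86 to 221 tags, and its RNA fell by 2.01 on the log2 scale. YCL048W-A gained 14.1 nt, YDR034C-A 13.01 nt and YDR133C, which has no entry in the annotation used, 9.30 nt, while its RNA rose by 6.02 on the log2 scale. In each of the 5 both libraries at 7 h lay above both at 1 h.

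Of the 9 shorter tails 8 are described. TDH3, the main glyceraldehyde-3-phosphate dehydrogenase (chromosome VII, 882812 to 883810), had 25.5 and 26.9 nt at 1 h and 16.4 and 16.1 nt at 7 h, a change of -9.96 nt (SE 1.34, adjusted p 0.002824), on 1165 to 5330 tags. Its RNA fell from 3145 and 3725 CPM to 461 and 651 CPM. ENO1 went from 21.3 and 26.5 nt to 13.4 and 14.5 nt (-9.94 nt). CPA1, a subunit of the carbamoyl phosphate synthetase of arginine synthesis, had 32.2 and 32.2 nt at 1 h and 22.7 and 22.3 nt at 7 h, and GDH3, a glutamate dehydrogenase, changed by -8.23 nt. SAH1, which hydrolyses S-adenosylhomocysteine, changed by -10.7 nt and NCW1 by -8.59 nt, on falling RNA in both. In 2 genes the tail fell while the RNA did not pass the test. ILV6, the regulatory subunit of acetolactate synthase, had 34.3 and 34.1 nt at 1 h and 25.96 and 25.9 nt at 7 h with an RNA log2 change of -0.04, and HNT1, a nucleoside phosphoramidase, changed by -8.51 nt with an RNA log2 change of -0.20.

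**Figure D3:**
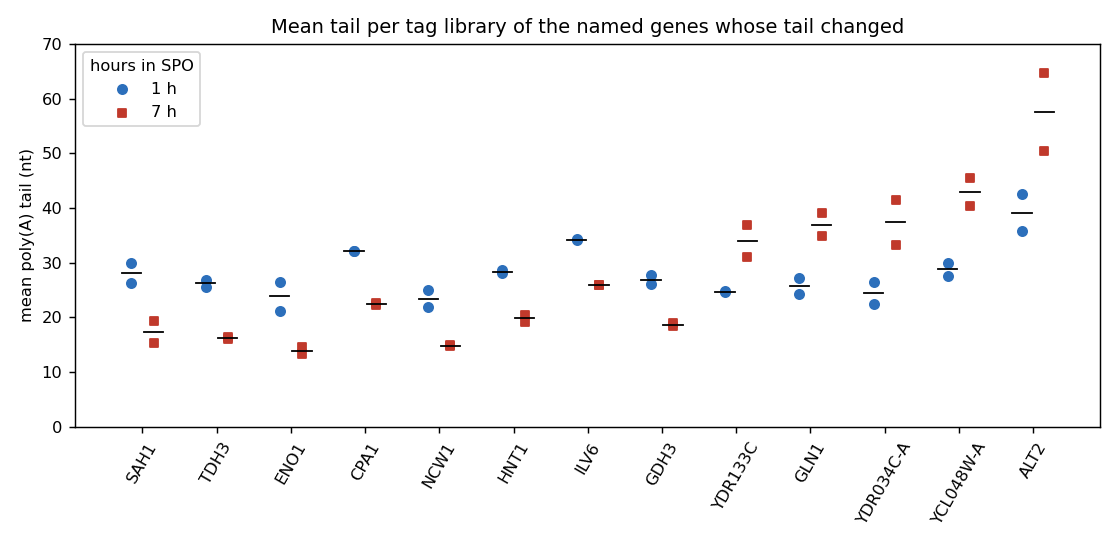
Mean poly(A) tail (nt) in each tag library of the 13 named genes whose tail changed, with circles for 1 h and squares for 7 h in SPO and a bar for the mean of 2 libraries. In all 13 the libraries of both hours are apart, from SAH1 with a change of -10.7 nt at the left to ALT2 with 18.5 nt at the right, and replicates of the lengthened genes are spread more widely at 7 h.

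Tail change went with RNA change across genes. Over 2075 genes tested for both, the Spearman rho of tail change and RNA log2 change was 0.408, and it was 0.311 and 0.364 for the difference within replicate 1 and within replicate 2. Genes are not independent points, and all share the same 4 tag libraries, while the RNA libraries are separate. The 508 genes whose RNA rose had a median tail change of 0.52 nt (quartiles -1.94 and 3.08), the 625 not called -1.64 nt, and the 942 whose RNA fell -3.06 nt (quartiles -5.18 and -0.72). With changes of at least 4-fold the medians were 2.22 nt over 115 genes that rose, 84 of them with a longer mean tail, and -4.45 nt over 170 that fell, 157 of them with a shorter one. Both libraries at 7 h lay above both at 1 h in 120 and below in 83 of the genes that rose, and in 41 and 506 of those that fell. Without the second tag library at 7 h the medians were -1.14 nt for genes that rose and -4.29 nt for genes that fell, and without the first 2.22 and -2.05 nt, so the sign for the genes that rose rests on the second library while the order of the classes does not. For the genes that rose at least 4-fold the median was 0.23 nt without the second tag library at 7 h, with 62 longer and 54 shorter, and 4.57 nt without the first.

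Of the called tails, 3 of the longer belonged to genes whose RNA rose and 1 to a gene whose RNA fell, and 7 of the shorter belonged to genes whose RNA fell and none to a gene whose RNA rose. In each tag library, tails were set against level in the RNA library of the same hour and replicate number, as CPM per kilobase of gene. Genes of higher level had longer tails, with a Spearman rho of 0.271 and 0.327 at 1 h and 0.356 and 0.348 at 7 h. Replicate numbers do not pair the samples, and the part of gene length in these values was not tested. The number of genes behind these values was 2337 to 3494, and the genes of one library share its depth.

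**Figure D4:**
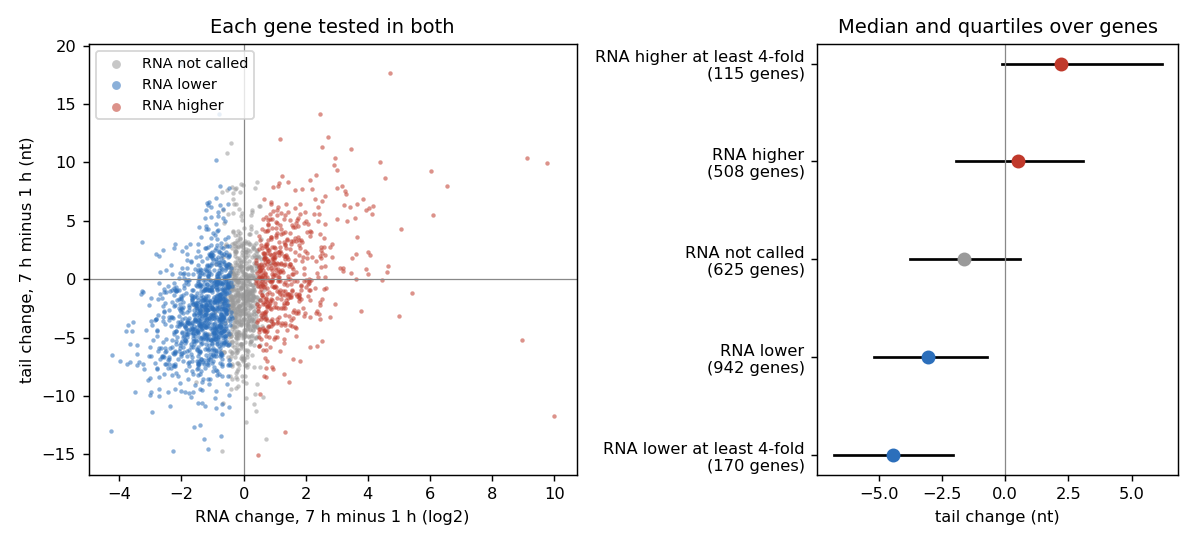
Left, tail change (nt, 7 h minus 1 h) against RNA change (log2) for each of 2075 genes, coloured by the RNA call. Right, median (point) and quartiles (line) of the tail change in classes of RNA change, from 2.22 nt for genes that rose at least 4-fold down to -4.45 nt for those that fell at least 4-fold.

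Among lists with 8 or more tail tests, glycolysis had the lowest median change. Of 16 of its genes with a tail test 2 were called shorter, TDH3 and ENO1, and 14 had a shorter mean, with a median change of -6.43 nt (-4.99 to -8.22 nt when 1 library was left out) against -1.79 nt for all genes. Over 17 of them with 20 tags in both libraries of an hour, the median tail was 21.4 and 24.1 nt at 1 h and 16.2 and 17.4 nt at 7 h. Stress and storage genes had a median change of -4.07 nt over 34 (-1.92 nt without the second library at 1 h), acetate use -3.64 nt over 22 and respiration -2.79 nt over 41, with no gene called in these 3 groups. In nitrogen use GLN1 was called longer and GDH3 shorter of 16. Ribosomal protein genes had a median of -1.31 nt over 74, which ran from -3.005 nt without the second library at 7 h to -0.30 nt without the second at 1 h. Genes of mRNA decay had 0.08 nt over 19, which ran from -1.66 nt without the first library at 1 h to 2.28 nt without the first at 7 h, so no direction can be given. The early genes had -3.72 nt over 14, with -1.32 nt without the first library at 7 h and -6.08 nt without the second.

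Few middle and late genes had enough tags at 1 h for a change, 8 of 40 and 4 of 19, but at 7 h nearly all could be read. There the median over 39 middle genes was 23.6 nt in the first library and 29.8 nt in the second, over 18 late genes 25.7 and 31.4 nt, and over all 3076 genes with 20 tags in both 21.7 and 25.2 nt. Their tails thus lay above the median gene in both libraries by a few nt, and glycolysis genes, with 16.2 and 17.4 nt, below it. NDT80 had 22.1 and 30.1 nt on 559 and 316 tags, SMK1 26.4 and 35.8 nt, and SSP2 30.1 and 40.0 nt. The libraries parted over SPS4, with 19.8 nt on 9514 tags in the first and 44.9 nt on 3539 tags in the second, against 44.9 and 43.3 nt at 1 h on 42 and 26 tags. AMA1 had 8.02 nt on 820 tags in the first library and 17.3 nt on 132 tags in the second, which also parted. Its mean was among the 10 shortest of the 1005 genes with 100 tags in both libraries at 7 h. The longest after ALT2 were SOL1, a homolog of 6-phosphogluconolactonase, with 46.6 and 56.5 nt, YCL048W-A and NAB2, a nuclear poly(A)-binding protein, with 41.2 and 42.0 nt at 7 h and 37.0 and 42.8 nt at 1 h. COX1, encoded in the mitochondrial genome, whose mRNAs carry no poly(A) tail in yeast, was the shortest of those 1005, with 6.49 and 7.93 nt at 1 h and 6.40 and 7.87 nt at 7 h. On fewer tags at 7 h, COB had 4.74 and 4.22 nt, COX2 9.58 and 7.19 nt and COX3 10.5 and 10.8 nt.

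The same hours were also sampled in Exp1, a separate time course of WT SK1 in SPO with 2 libraries of each kind per hour. Ranked over 6278 genes, both Exp2 libraries at 1 h were most like the Exp1 hour of 1 h (Spearman rho 0.981 and 0.968) and both at 7 h most like 7 h (0.979 and 0.918). In Exp1 2050 of 6098 genes rose (33.6%) and 2353 fell (38.6%). Of 3778 genes called in Exp2 and tested in Exp1, 3508 (92.9%) were called there with the same sign and 3 with the opposite one. In a test of the difference between experiments 3 genes passed (0.0492%), and 521 had an unadjusted p under 0.05. CYC1, cytochrome c, was one: its RNA changed by -1.35 on the log2 scale in Exp1 and by 0.13 in Exp2 (difference 1.47, SE 0.286, adjusted p 0.01446). The others were BIL2 and SIP18. None passed without the first Exp1 library at 1 h, either Exp1 library at 7 h or the second Exp2 library at 1 h, 68 passed without the second Exp1 library at 1 h, and 53 without the first Exp2 library at 1 h.

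The median tail change was negative in both experiments and nearer 0 in Exp2. Over 533 genes with 20 tags in all 8 libraries the median change was -5.02 nt in Exp1 and -2.04 nt in Exp2, and for 465 genes the change was higher in Exp2, whether less of a loss or more of a gain. The median of the per-gene difference was 2.86 nt, with 1.53 nt without the second Exp2 library at 7 h and 4.21 nt without the first Exp1 library at 1 h, and it was -0.17 nt after each library was centred on its median. The library medians over these genes were 22.4 and 24.6 nt at 1 h and 17.5 and 19.1 nt at 7 h in Exp1, and 24.8 and 25.4 nt and 21.6 and 24.4 nt in Exp2. The difference passed the test for 6 genes (1.13%), all with a higher change in Exp2, and 92 had an unadjusted p under 0.05. Leaving out the first Exp2 library at 7 h gave 67 such genes, leaving out the first or the second Exp1 library at 1 h gave 22 or 3, and leaving out the first or the second at 7 h gave 2 or 10. SLZ1 was among the 6, with tails of 25.8 and 30.7 nt at 1 h and 21.5 and 22.6 nt at 7 h in Exp1, and 23.3 and 23.7 nt and 26.4 and 29.7 nt in Exp2. GLN1 gained 11.3 nt in Exp2 and 1.63 nt in Exp1, and this difference did not pass (adjusted p 0.0715). TDH3 and ENO1 fell in Exp2 and changed by -6.77 and -9.52 nt in Exp1.

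**Figure D5:**
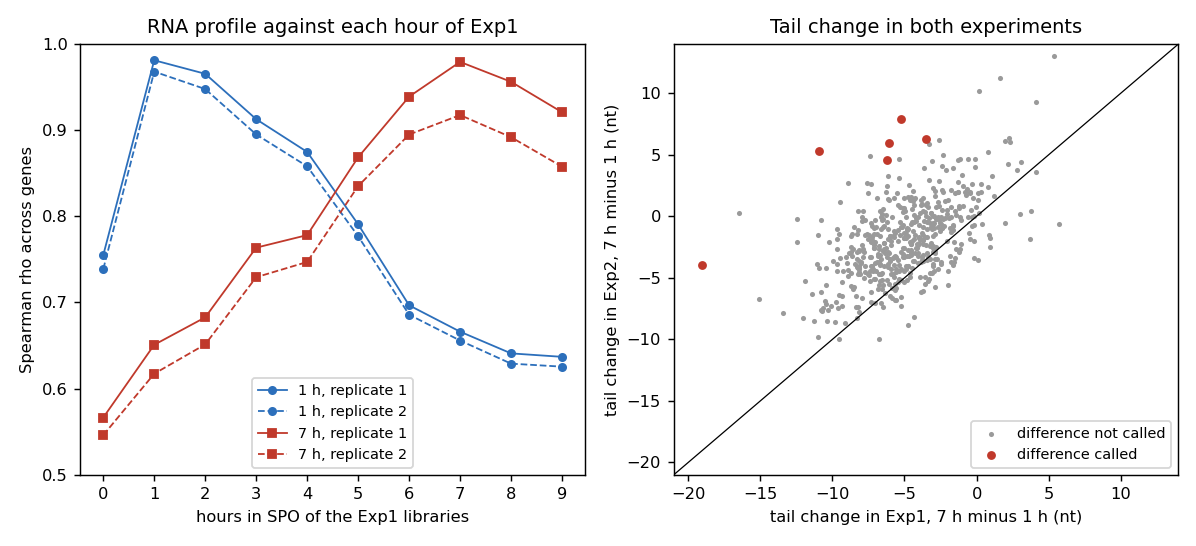
Left, Spearman rho of each Exp2 RNA library with the mean profile of each hour of Exp1, with circles for 1 h and squares for 7 h, and peaks at 1 h (0.981 and 0.968) and 7 h (0.979 and 0.918). Right, tail change from 1 h to 7 h (nt) in Exp2 against Exp1 for 533 genes, where the line marks equal change and 465 genes lie above it, with the 6 genes whose difference was called in red.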

How the data were processed

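The authors deposited raw whole-number counts for RNA-seq and for poly(A) tags, 1 value a gene and library. The mean tail of each gene and library, in nt, is a deposited score of its own; the mean times the tags was whole within 0.02 for 100.0% of the values tested, and the smallest mean was 4.00 nt. Per the submitters' processing notes, the build was sacCer3 and the tools included STAR 2.5.3a, bedtools (2.26.0 for tags) and edgeR. How tails were called, duplicates treated and strand used is not stated. No molecular identifiers are mentioned, and counting intervals (95%) and floors (3 counts) thus cover counting error only. Per the labels' protocols, RNA libraries were made by 3′ adapter ligation, ribodepletion and fragmentation, and tag libraries by poly(A) selection, fragmentation and 3′ adapter ligation.

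Counts were fitted with edgeR 4.0.16 (TMM, filterByExpr, quasi-likelihood) in R 4.3.3, in 1 model of 6 group means over the 12 Exp2 libraries of each assay, and tails with limma 3.58.1 on the linear scale (trend on mean log2 tags, robust). Interactions with Exp1 used 8 libraries. DESeq2 1.42.0 was an alternative for RNA. The fits were tested on simulated data. Each deposited table has 18 further columns, which name no sample analysed and were not used here. Of 6692 genes 6008 matched R64 by systematic name.

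The comparison and the 20 gene lists were chosen with earlier results of these data known. Genes named are fixed regulators and markers, the 8 largest rises and falls in RNA (groups apart, at least 50 CPM) and in tail, the 2 called members of each list with the largest change, and called interactions. Other members are named as examples after their values were seen. Replicate numbers did not pair the samples: deviations of same-numbered libraries at 1 h and 7 h correlated at -0.0171 in RNA, 0.0505 in tags and 0.0264 in tails.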

Additional observations from a re-analysis of the deposited data

Results flagged for a closer look

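The change from 1 h to 7 h differed between Exp2 and Exp1 for 3 genes in RNA (edgeR interaction test, log2, each with adjusted p 0.01446). BIL2 differed by 4.43: it rose in both experiments, from 7.04 and 3.58 CPM to 571 and 473 CPM in Exp1 and from 0.609 and 0 CPM to 965 and 1036 CPM in Exp2, so the difference rests on 1 count at 1 h in Exp2. CYC1 differed by 1.475, with 135 and 119 CPM at 1 h and 48.0 and 51.5 CPM at 7 h in Exp1 and 67.0 and 60.9 CPM and 72.1 and 59.5 CPM in Exp2. SIP18, a gene of desiccation stress, differed by -1.305, with 469 and 572 CPM and 596 and 585 CPM in Exp1 and 856 and 1189 CPM and 539 and 314 CPM in Exp2. These CPM are scaled over the 8 libraries of both experiments.

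In tails the difference, Exp2 minus Exp1, passed the limma interaction test for 6 genes. It was 16.2 nt for HAB1 (adjusted p 0.001043), 15.1 nt for ERG1, the squalene epoxidase (0.01574), 13.1 nt for DPA10 (1.029e-04), 12.1 nt for DDR2, a stress gene (0.001043), 10.8 nt for SLZ1 (0.02184) and 9.80 nt for GFA1, the first enzyme of chitin precursor synthesis (0.04458). ERG1 became shorter in both experiments, by 19.1 nt in Exp1 and 3.98 nt in Exp2. The other 5 had shorter mean tails at 7 h in Exp1 and longer ones in Exp2. DDR2 had 26.6 and 26.1 nt at 1 h and 18.8 and 21.7 nt at 7 h in Exp1, and 27.7 and 30.3 nt and 33.5 and 36.4 nt in Exp2. The 2 experiments were sequenced as separate libraries, and library and experiment cannot be told apart.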

How the results depend on the processing

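Counts of RNA calls fell most without the first RNA library at 7 h, which leaves that hour with the shallow one: over the 4 libraries left out in turn, 1049 to 1738 genes were higher and 882 to 1922 lower, and DESeq2 called 3065, of which 3060 were among the 3786 called by edgeR. In tags the ranges were 683 to 929 higher and 434 to 507 lower. Tail calls were the least stable: 0 to 5 longer and 0 to 3 shorter when 1 library was left out, 0 and 1 with 10 tags as the minimum, 26 shorter with 50 tags, 51 and 18 after centring each library, 9 and 38 on log2 tail length, and 9 and 22 from a fit of the 4 libraries alone. In fits that leave 1 library in an hour, that library is assumed to vary like the others. The difference between experiments gave 0 to 68 genes in RNA and 2 to 67 in tails when 1 of 8 libraries was left out. The medians of mRNA decay and haploid genes turned to -0.15 and -0.16 with library sizes alone, and the change of OLI1 RNA ran from -1.376 to 3.279 when 1 RNA library was left out, where the cause was not tested.

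With the replicate number as a block, RNA gave 3762 calls, of which 3716 were shared, tags 1620 (1604 shared), tails 16 (all 14 shared), the RNA difference between experiments 8 and the tail difference 6 (5 shared). The numbers do not pair the samples, so this block is only an alternative. Among the single genes and medians recomputed, 1166 values kept direction and call, 74 lost the call, 2 gained it, 12 moved by more than the spread and 3 reversed. Among the counts of calls and the library median, 57 values stayed and 32 moved by over 1.5 times.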
